A study of Caenorhabditis elegans with 6 samples.

Results

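Pseudogenes are described here as targets of 22G-RNAs in *lotr-1(sam117)* mutant and wild-type *C. elegans*. The members were the listed loci whose Ensembl biotype on the WBcel235 assembly is pseudogene, and there were 2103 of them among 22336 loci (9.42%). The study counted on an older annotation release and lists fewer pseudogenes for it, so some members had another class there. The libraries came from whole gravid adults collected 65 h after synchronized first-stage larvae were plated on OP50 bacteria. The mutant strain carries *lotr-1(sam117)*, a deletion of the whole coding sequence of *lotr-1*, which encodes a germ-granule protein with LOTUS and Tudor domains. The wild-type strain was N2. There were 3 libraries of each genotype, and the labels give no other difference between them. RNA of both genotypes was treated with RppH, a pyrophosphohydrolase that lets small RNAs with a 5′ triphosphate be ligated. The labels do not say whether the 3 libraries came from separate cultures, so the p-values measure only the spread between these libraries. Whole animals were used, and a change in the number of germ cells and a change in 22G-RNAs per cell cannot be told apart.

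22G-RNAs are secondary small interfering RNAs of *C. elegans* that begin with guanosine. RNA-dependent RNA polymerases make them on a target transcript, so that they are antisense to it, and Argonaute proteins of the WAGO and CSR-1 groups bind them. The WAGO branch depends on Mutator factors and silences transposons, pseudogenes and many other genes, whereas the CSR-1 branch covers transcripts expressed in the germ line. A pseudogene is a copy of a gene that no longer codes for an intact protein, and in this species many belong to large, fast-changing families such as chemoreceptors and F-box genes. A value below is a count of reads antisense to the exons of a locus, and it does not measure the transcript itself.

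The libraries held between 3368618 and 3810890 counts in *lotr-1(sam117)* and between 3150716 and 3829101 counts in wild-type. These are the 22G-RNA reads at listed loci and not the sequencing depth. A floor of 3 counts was between 7.83e-05% and 9.52e-05% of a library, and this floor covers counting error only. As a check of the labels, the deleted gene *lotr-1* had 40, 49 and 60 counts in *lotr-1(sam117)* and 477, 522 and 563 counts in wild-type, and its log2 fold change was -2.62 ± 0.17 (SE), with a DESeq2 adjusted p of 1.99e-21. The counts did not reach 0 in any mutant library. Summed counts at 31 protein-coding major sperm protein genes were 128 to 136 in *lotr-1(sam117)* and 64 to 95 in wild-type, and 0 of 19 tested were called by DESeq2, with 0 at an unadjusted p below 0.05 and 1 called up by edgeR against 2-fold. Summed counts at 7 oogenic germ line genes were 2664 to 2944 in *lotr-1(sam117)* and 4628 to 5386 in wild-type, with 0 of 7 called by DESeq2 or edgeR and 0 at an unadjusted p below 0.05. At 9 somatic genes they were 260 to 305 in *lotr-1(sam117)* and 264 to 396 in wild-type, with 1 of 8 tested called down. These sums are raw counts, not scaled between libraries. In the scaled DESeq2 fit the median log2 fold change was 1.51 at sperm protein genes, -0.17 at oogenic genes and 0.90 at somatic genes. DESeq2 against no change called 6 of the 19 tested sperm protein genes up and 0 down. The part of these gene lists in the results below was not tested.

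Of the 2103 pseudogenes, 799 had no count in any library and 593 had counts but too few for an adjusted p-value. The other 711 (33.8%) were tested, against 54.4% of protein-coding genes. The lowest mean over the 6 libraries among all tested loci was 2.33 normalized counts, that is, counts divided by the size factor of the library. The number of pseudogenes with at least 1 count was 932 ± 16.6 in *lotr-1(sam117)* libraries and 942 ± 25.1 in wild-type libraries (SD, n = 3), a difference smaller than the spread between replicates.

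Pseudogenes took 11.11, 11.11 and 11.04% of all 22G-RNA counts in the *lotr-1(sam117)* libraries and 12.58, 12.29 and 12.39% in the wild-type libraries. The 3 mutant libraries were all below the 3 wild-type libraries, and the means were 11.1% ± 0.0369 and 12.4% ± 0.149 (SD, n = 3), a difference of -1.34 percentage points. With counts at transposon families left out of the total the difference was -0.77 percentage points. A small number of loci held most of these counts. The 10 highest pseudogenes in wild-type held 35.6% of pseudogene counts in *lotr-1(sam117)* and 37.7% in wild-type, and the 50 highest held 72.6% in *lotr-1(sam117)* and 74.0% in wild-type.

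Some pseudogenes were among the most heavily targeted genes of the worm. They were 13 of the 50 genes and 25 of the 100 genes with the most 22G-RNA counts in wild-type. Per kilobase of exon, they were 24 of the 100 tested genes with the highest wild-type level, while pseudogenes made up 6.16% of the 11536 tested genes. The level of the median tested pseudogene was 31.1 normalized counts per kilobase in *lotr-1(sam117)* and 29.4 in wild-type, close to that of the median protein-coding gene, 30.3 in *lotr-1(sam117)* and 38.3 in wild-type. At the 90th percentile the level was 1610 per kilobase in *lotr-1(sam117)* and 837 in wild-type for pseudogenes, against 203 in *lotr-1(sam117)* and 219 in wild-type for protein-coding genes. The heavily targeted end of the distribution therefore reached higher in pseudogenes, in both genotypes.

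To ask at which pseudogenes 22G-RNAs were deregulated, each locus was tested with DESeq2 against a 2-fold change at 10% FDR, in a fit over all loci. In *lotr-1(sam117)*, 100 pseudogenes were called up (14.1% of those tested) and 52 were called down (7.31%). Over all 11682 tested loci, 8.15% were called up and 8.14% were called down, and among protein-coding genes 7.25% were up and 8.26% down. With these size factors calls up made a larger share of pseudogenes than of all loci, and calls down a share near that of all loci. The median log2 fold change was 0.40 over tested pseudogenes, 0.02 over protein-coding genes and 0.04 over all tested loci. It was 2.43 over the pseudogenes called up and -2.34 over those called down. These medians were not matched for counts. Between 1 and 10 normalized wild-type counts the median was 0.71 for pseudogenes and 0.78 for coding genes, and at 1000 or more 0.27 and 0.31. Between 10 and 100 it was 0.09 and -0.09, between 100 and 1000 0.14 and -0.23, and below 1 3.44 and 3.10. The higher median of pseudogenes was therefore not seen at all count levels. Among the pseudogenes called up, 16 had at most 3 counts in every wild-type library, and their lower bounds were 2.41-fold to 199.7-fold. Among those called down, 4 had at most 3 counts in every mutant library, with lower bounds of 4.28-fold to 27.7-fold.

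**Figure D1:**
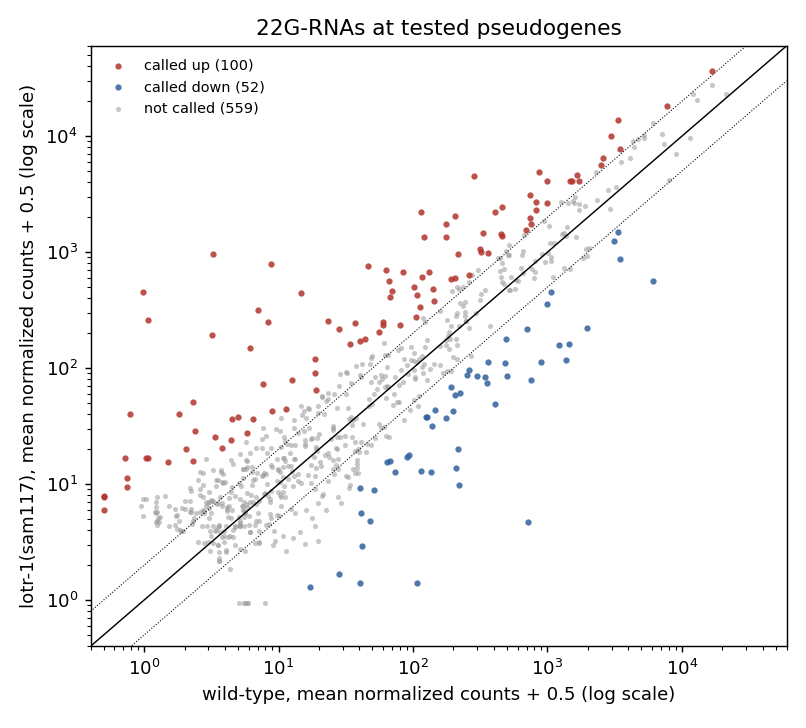
Mean normalized 22G-RNA counts of the 711 tested pseudogenes in *lotr-1(sam117)* (vertical axis) and in wild-type (horizontal axis), both on log scales after adding 0.5, with 1 point per pseudogene. The solid line marks equal levels and the dotted lines a 2-fold difference. The 100 pseudogenes called up and the 52 called down are coloured. None of the pseudogenes called down had a wild-type mean below 10, where a fall could hardly be called.

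The balance between directions depended on how the libraries were scaled. Size factors averaged 0.776 ± 0.0553 in *lotr-1(sam117)* and 1.32 ± 0.144 in wild-type (SD, n = 3) although total counts were alike, and scaling to equal totals moved the median locus by -0.79 on the log2 scale. With that scaling 51 pseudogenes were called up and 107 down by DESeq2, so that calls up were 32.3% of calls in place of 65.8%. That was 7.15% up and 15.01% down of the pseudogenes tested, beside 4.26% up and 20% down of all loci, so the share of calls down was then below that of all loci. All 51 called up with total-count scaling were among the 100, and all 52 called down with size factors were among the 107. The median pseudogene was at -0.47 and the median tested locus at -0.77. Total-count scaling moved most loci by nearly the same amount, between -0.792 and -0.785. The order of these medians was therefore fixed in advance, and the second scaling gives no separate evidence on it.

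The pseudogenes called up took 4.03% ± 0.0167 of all counts in *lotr-1(sam117)* and 2.29% ± 0.0203 in wild-type (SD, n = 3). Those called down took 0.167% ± 0.00417 in *lotr-1(sam117)* and 1.30% ± 0.0134 in wild-type. The 559 that were not called took 6.89% ± 0.0496 in *lotr-1(sam117)* and 8.84% ± 0.116 in wild-type. The lower total share of pseudogenes in the mutant thus lay at the loci called down and at the loci not called. These shares were grouped by the calls themselves and are given as a description.

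Because calls vary with the number of counts, pseudogenes were set beside protein-coding genes of like wild-type level. Between 100 and 1000 normalized counts in wild-type, 35 of 158 pseudogenes (22.2%) were called up, against 7.22% of coding genes, and 30 (19.0%) were called down, against 16.6% of coding genes. Between 10 and 100, 22 of 220 pseudogenes (10%) were up, against 6.66% of coding genes, and 13 (5.91%) were down, against 6.21%. Between 1 and 10, 21 pseudogenes (8.86%) were up, against 5.32% of coding genes, and 0 were down, against 0.110%. Of these pseudogenes, 1 was down at an unadjusted DESeq2 p below 0.05, and edgeR called 0 down. Falls could hardly be called at these counts, since only 3 of 2726 coding genes were called down. Loci with a wild-type mean below 2.33 could be tested only if the mutant was higher. This group therefore says little on the balance of directions, although the excess of calls up given below includes it. At 1000 counts or more the order of the classes was the other way, with 16.2% of 68 pseudogenes up, against 25.3% of coding genes, and 13.2% down, against 16.8%. Below 1 count a locus could only be tested if the mutant was higher, so the 11 of 28 pseudogenes called up there carry no information on direction. If coding genes had the count distribution of the pseudogenes, 8.81% would have been called up and 7.25% down, 5.26 and 0.0614 percentage points below the pseudogene values. With groups set by the mean over all 6 libraries the excess of calls up was 4.28 percentage points, and without the group below 1 count, an alternative chosen after seeing the data, it was 4.86. The size of the excess depended on scaling, filter and test, with 2.53 percentage points under total-count scaling, 2.85 without a low-count filter, 9.17 with at least 10 counts in 3 libraries, 9.10 with DESeq2 against no change, 10.2 with edgeR against 2-fold and 11.9 with edgeR against no change. For calls down the difference was -2.10 percentage points under total-count scaling. No test was made of this difference, since the loci are not replicates.

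**Figure D2:**
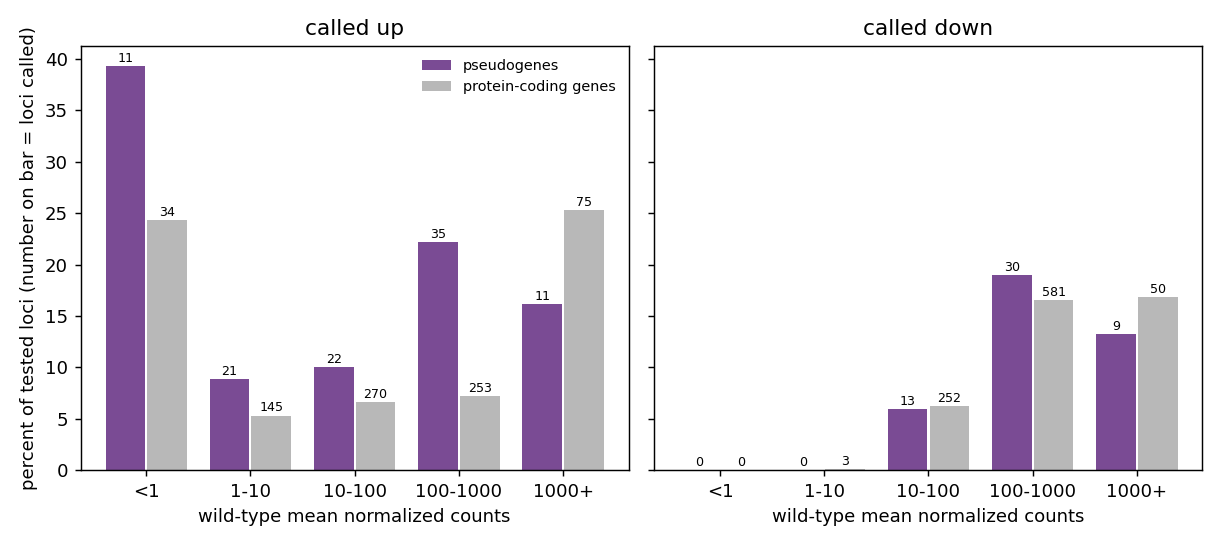
Percent of tested loci called up (left) and called down (right) by DESeq2 in *lotr-1(sam117)*, for pseudogenes and protein-coding genes in 5 groups of wild-type mean normalized count, with the number of called loci on each bar. Pseudogenes had the higher percent called up in each of the 3 groups between 1 and 1000 counts and the lower one at 1000 or more. At most 0.110% of either class was called down below 10 counts, where a fall could hardly be called.

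Next, individual pseudogenes were examined. Among called pseudogenes that averaged 100 normalized counts or more and whose genotypes did not overlap, 68 rose and 32 fell, and the 10 with the largest change in each direction are given. The 68 and 32 give only the size of the pool. No share over all loci is set beside them, and the balance of calls depended on scaling, as described above. Adjusted p-values of the 10 rises were at most 1.27e-13 (DESeq2), and standard errors of the log2 fold change were 0.06 to 1.03. Counts listed per library are raw unless they are called normalized. Log2 fold changes were computed after division by size factors, which averaged 0.776 in *lotr-1(sam117)* and 1.32 in wild-type, so raw counts and fold changes are on different scales. All coordinates are WBcel235.

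*ZK1236.8* (WBGene00023223, chromosome III centre, 8436700 to 8437811, minus strand, 2 exons) had 317, 388 and 358 counts in *lotr-1(sam117)*, against 0, 1 and 1 in wild-type, at least 199.7-fold higher. It was nearly without 22G-RNAs in all 3 wild-type libraries. *C25D7.14* (WBGene00014681, chromosome V right arm, 15034380 to 15035420, plus strand, 4 exons) had 184, 219 and 201 counts in *lotr-1(sam117)*, against 2, 0 and 0 in wild-type, at least 114-fold higher. *C25D7.2* (WBGene00007715, chromosome V right arm, 15037795 to 15038835, minus strand, 4 exons) had 742, 804 and 716 counts in *lotr-1(sam117)*, against 3, 3 and 5 in wild-type, a log2 fold change of 8.46. These last 2 loci have the same exon length, 886 bases, and the same span, 1041 bases, on opposite strands. *Y92H12BR.4* (WBGene00022370, chromosome I left arm, 1427227 to 1433695, minus strand, 6 exons) had 554, 649 and 625 counts in *lotr-1(sam117)*, against 10, 13 and 10 in wild-type, a log2 fold change of 6.56. The F-box pseudogene *fbxa-168* (WBGene00007838, chromosome II right arm, 13645781 to 13648850, plus strand, 4 exons) had 231, 259 and 242 counts in *lotr-1(sam117)*, against 6, 10 and 10 in wild-type, a log2 fold change of 5.59. It overlaps the coding gene *fbxa-169* by 269 exon bases on the same strand, where reads cannot be told apart, but *fbxa-169* itself was at 0.52 and was not called.

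The other 5 of the 10 rises were between 4.00 and 5.01 on the log2 scale. *msh-4* (WBGene00003420, chromosome II centre, 7077848 to 7078569, plus strand, 5 exons), named in the class of MutS mismatch repair homologues, had 179, 227 and 182 counts in *lotr-1(sam117)*, against 8, 16 and 7 in wild-type, a log2 fold change of 5.01. The coding genes with an *msh* name were at -0.03 (*msh-2*), -0.11 (*msh-5*) and -0.61 (*msh-6*), and none of these 3 was called. Coding relatives under other names were not compared. *Y73F8A.37* (WBGene00044632, chromosome IV right arm, 15521488 to 15522118, minus strand, 4 exons) had 329, 386 and 316 counts in *lotr-1(sam117)*, against 21, 10 and 25 in wild-type, a log2 fold change of 4.97. *F53H1.2* (WBGene00023291, chromosome IV left arm, 1335896 to 1336434, plus strand, 2 exons) had 1653, 1830 and 1657 counts in *lotr-1(sam117)*, against 137, 160 and 156 in wild-type, a log2 fold change of 4.27. It lies inside the span of the coding gene *F53H1.3* on the same strand, and *F53H1.3* also rose, by 4.70. *fbxa-93* (WBGene00012368, chromosome I right arm, 13829662 to 13831607, plus strand, 4 exons) had 562, 606 and 607 counts in *lotr-1(sam117)*, against 61, 59 and 60 in wild-type, a log2 fold change of 4.07. *W06A11.4* (WBGene00021055, chromosome II left arm, 4056030 to 4057653, plus strand, 6 exons) had 3211, 3852 and 3505 counts in *lotr-1(sam117)*, against 345, 367 and 414 in wild-type, a log2 fold change of 4.00. It had the most mutant counts of the 10, and its per-length level was 4367 normalized counts per kilobase in *lotr-1(sam117)* and 273 in wild-type.

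The 10 largest falls had adjusted p-values of at most 1.74e-18 (DESeq2) and standard errors of 0.07 to 0.47. *Y53F4B.16* (WBGene00013162, chromosome II right arm, 15052083 to 15054573, minus strand, 3 exons) had 1, 4 and 5 counts in *lotr-1(sam117)*, against 936, 895 and 975 in wild-type, a log2 fold change of -7.37. It was nearly emptied of 22G-RNAs in all mutant libraries. *fbxa-46* (WBGene00018690, chromosome X left arm, 1981900 to 1984833, plus strand, 5 exons) had 4, 10 and 8 counts in *lotr-1(sam117)*, against 202, 299 and 388 in wild-type, a log2 fold change of -4.55. *Y9D1A.2* (WBGene00021187, chromosome II centre, 7450511 to 7453093, minus strand, 4 exons) had 11, 11 and 9 counts in *lotr-1(sam117)*, against 282, 264 and 271 in wild-type, a log2 fold change of -3.96. *F52G3.3* (WBGene00018711, chromosome X right arm, 16944858 to 16948026, minus strand, 4 exons) had 77, 108 and 89 counts in *lotr-1(sam117)*, against 1661, 1795 and 1963 in wild-type, a log2 fold change of -3.54. It overlaps the pseudogene *F52G3.4* by 2 bases, and *F52G3.4* also fell, by 1.80. *oac-60* (WBGene00020371, chromosome V left arm, 4481100 to 4481546, minus strand, 3 exons), named in a class of O-acyltransferase homologues, had 14, 18 and 14 counts in *lotr-1(sam117)*, against 286, 249 and 311 in wild-type, a log2 fold change of -3.44.

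*C06C3.5* (WBGene00007376, chromosome II centre, 9380106 to 9381355, minus strand, 3 exons) was the fallen pseudogene with the highest wild-type count, and it had 434, 480 and 395 counts in *lotr-1(sam117)*, against 7688, 7643 and 8760 in wild-type, a log2 fold change of -3.44. Its per-length level was 709 normalized counts per kilobase in *lotr-1(sam117)* and 7678 in wild-type. *Y24F12A.3* (WBGene00012498, chromosome IV centre, 11608900 to 11610910, plus strand, 4 exons) had 61, 61 and 61 counts in *lotr-1(sam117)*, against 859, 1013 and 1121 in wild-type, a log2 fold change of -3.26. The neighbouring pseudogene *Y24F12A.4* (WBGene00012499, 11616121 to 11617984, minus strand, 3 exons) had 181, 182 and 156 counts in *lotr-1(sam117)*, against 2326, 2605 and 2908 in wild-type, a log2 fold change of -3.15. These 2 loci lie 5210 bases apart on opposite strands and fell to a similar extent. *Y102A5C.35* (WBGene00044220, chromosome V right arm, 16924985 to 16926125, minus strand, 4 exons) had 104, 149 and 122 counts in *lotr-1(sam117)*, against 1574, 2034 and 2135 in wild-type, a log2 fold change of -3.16. *T08B6.2* (WBGene00020352, chromosome IV left arm, 4894370 to 4897043, minus strand, 8 exons) had 33, 44 and 36 counts in *lotr-1(sam117)*, against 459, 536 and 618 in wild-type, a log2 fold change of -3.06.

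**Figure D3:**
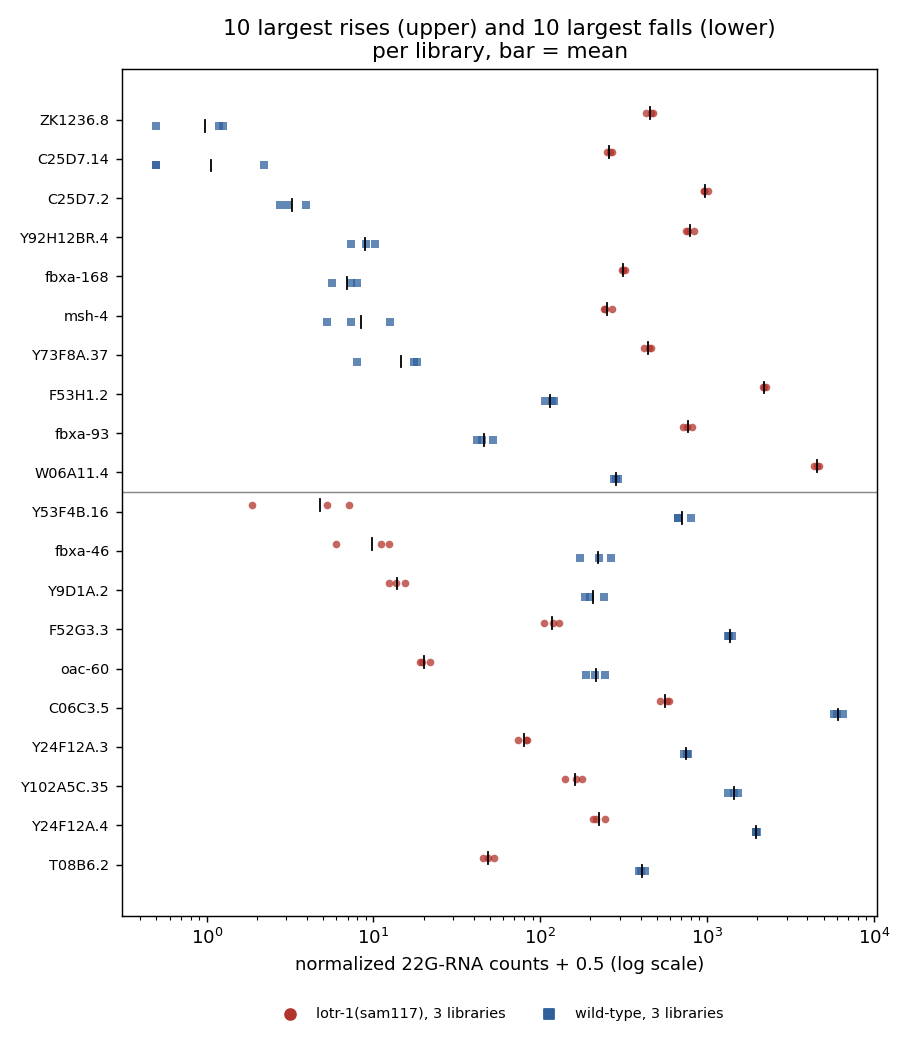
Normalized 22G-RNA counts, on a log scale after adding 0.5, of the 10 pseudogenes with the largest rises (upper) and the 10 with the largest falls (lower). Each row shows 3 *lotr-1(sam117)* libraries (circles) above 3 wild-type libraries (squares), with the mean as a bar. By the rule that chose them no row overlaps between genotypes.

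The 6 pseudogenes with the most 22G-RNAs in wild-type, whatever their call, are given next. *Y39E4B.14* (chromosome III right arm, 13162475 to 13164864, plus strand) had 22998, 23421 and 23200 normalized counts in *lotr-1(sam117)*, against 22773, 20481 and 20872 in wild-type, a log2 fold change of 0.12 that was not called. *F37H8.2* (chromosome II right arm, 11171743 to 11175479, minus strand) had 36388, 36391 and 37061 normalized counts in *lotr-1(sam117)*, against 17302, 16127 and 16617 in wild-type, which is 1.13 ± 0.03 (SE) on the log2 scale, with a DESeq2 adjusted p of 0.00063. It was the only one of the 6 highest to be called, and with total-count scaling it was at 0.35 and was not called. *cars-2* (chromosome I left arm, 2629685 to 2632320, plus strand), of the cysteinyl-tRNA synthetase class, had 28050, 28055 and 27188 normalized counts in *lotr-1(sam117)*, against 17213, 16368 and 16323 in wild-type, a log2 fold change of 0.74. *K08B4.5* (chromosome IV centre, 6086350 to 6089404, minus strand) was at 0.67 and *F32A11.5* (chromosome II right arm, 13131009 to 13134212, plus strand) at 0.95, neither called. *Y46H3C.6* (chromosome V left arm, 1697889 to 1701617, minus strand) had 9789, 10030 and 9117 normalized counts in *lotr-1(sam117)*, against 12702, 11041 and 10748 in wild-type, a log2 fold change of -0.25 that was not called. The direction of *Y39E4B.14*, *cars-2* and *K08B4.5* depended on the scaling, with log2 fold changes of -0.67, -0.05 and -0.12 when libraries were scaled to equal totals.

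Pseudogenes were then placed on the chromosomes. They are unevenly spread, with 861 on chromosome V, and only 20.3% of those were tested, whereas 55.3% of the 188 on chromosome I were. Of the tested pseudogenes, 23 of 104 on chromosome I were up (22.1%) and 7 were down, against 7.40% and 10.1% of its coding genes. On chromosome III the order of directions was the other way, with 4 of 74 up (5.41%) and 10 down (13.5%), against 6.67% and 9.72% of its coding genes. Chromosome IV had 19 up and 5 down of 124, against 5.65% up and 7.94% down of its coding genes. Chromosome V had 25 up and 9 down of 175, against 8.74% and 5.91%. Chromosome II had 18 up and 11 down of 143, against 6.81% and 8.66%. Chromosome X had 11 up and 10 down of 91, against 8.66% and 6.32%. The share of pseudogene counts from chromosome III was 8.20% in *lotr-1(sam117)* and 13.01% in wild-type, and that from chromosome I was 22.6% in *lotr-1(sam117)* and 19.8% in wild-type. The difference in calls between chromosomes was not tested.

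**Figure D4:**
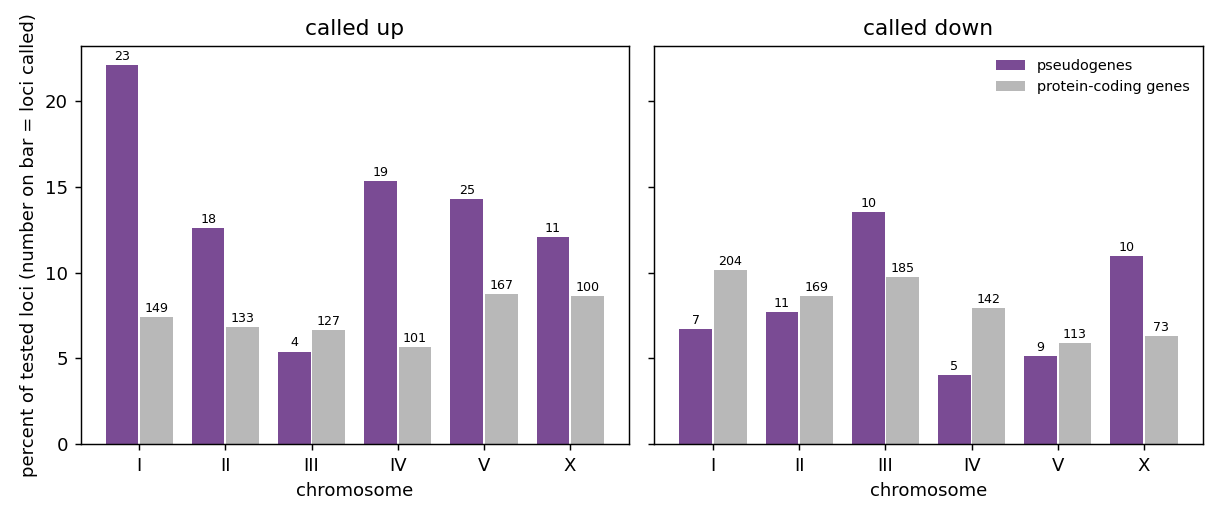
Percent of tested loci on each chromosome called up (left) and called down (right) by DESeq2 in *lotr-1(sam117)*, for pseudogenes and protein-coding genes, with the number of called loci on each bar. Pseudogenes of chromosome I had the highest percent called up (22.1%) and those of chromosome III the lowest (5.41%), while coding genes lay between 5.65% and 8.74%.

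*C. elegans* autosomes have gene-dense centres and repeat-rich arms. With the centre taken as the middle 1 of 3 equal parts of each chromosome, 1712 pseudogenes lay on arms and 391 in centres. Of 599 tested on arms, 83 (13.9%) were up and 42 (7.01%) down, and of 112 tested in centres, 17 (15.2%) were up and 10 (8.93%) down. Among coding genes, 8.99% on arms and 4.33% in centres were up, and 7.50% on arms and 9.54% in centres were down. No test was made between arms and centres. With the centre widened to the middle 2 of 4 equal parts, 30 of 195 central pseudogenes (15.4%) were up and 16 (8.21%) down. Of coding genes in that wider centre, 4.61% were up and 9.30% down. On the arms of that definition, 13.6% of pseudogenes were up and 6.98% down, against 10.5% and 6.999% of coding genes. The right arm of chromosome I alone held 15 of the calls up among 66 tested (22.7%), against 73 of 609 coding genes tested on that arm (11.99%).

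Names placed 583 pseudogenes in a gene class, and 1520 had a sequence name only. Of 69 F-box pseudogenes, whose coding relatives bind ubiquitin ligase complexes, 50 were tested, and 9 (18%) were up and 5 (10%) down. Coding F-box genes had 11.01% up and 3.52% down. F-box pseudogenes held 7.25% of pseudogene counts in *lotr-1(sam117)* and 3.96% in wild-type. *fbxa-203* had 10181, 11358 and 10511 counts in *lotr-1(sam117)*, against 3851, 4298 and 5140 in wild-type, a log2 fold change of 2.04. *fbxa-149* had 7361, 8849 and 7361 counts in *lotr-1(sam117)*, against 3626, 3922 and 4234 in wild-type, a log2 fold change of 1.77. The libraries of the genotypes did not overlap at either gene, and both were called, although with total-count scaling *fbxa-149* was at 0.98 and was not called. Like the others in these family paragraphs, they were chosen after their values were seen. *fbxa-168* (5.59) and *fbxa-46* (-4.55) were the called members with the largest change in each direction. The pair *fbxa-124* (-2.55) and *fbxa-122* (-2.08) lies 614 bases apart on chromosome I, has equal exon lengths of 975 bases, and both fell.

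Most of the 320 chemoreceptor pseudogenes, the largest class, carried few 22G-RNAs. Only 21 (6.56%) were tested, and DESeq2 called 0 in either direction, with 0 at an unadjusted p below 0.05, while edgeR against 2-fold called 1 down. Of tested coding chemoreceptor genes 8.04% were up and 8.93% down, so few calls could arise among 21 loci, and the difference was not tested. As a class the chemoreceptor pseudogenes held 0.203% of pseudogene counts in *lotr-1(sam117)* and 0.183% in wild-type. *srx-70* had the most, with 577, 667 and 632 raw counts in *lotr-1(sam117)*, against 477, 650 and 718 in wild-type. These raw counts overlap between genotypes, and its log2 fold change after division by size factors was 0.80, not called. The other 20 tested had at most 54 counts in any library, reached at *srh-9*. Among 18 tested pseudogenes of the MATH and BTB families, *bath-12* (1.50) and *bath-11* (1.25) were called up and *bath-22* (-2.12) and *btb-1* (-2.20) were called down, 11.1% in each direction, against 13.3% up and 3.33% down of coding genes of these families. With total-count scaling *bath-12* was at 0.71 and *bath-11* at 0.46, and neither was called. Of 6 tested nuclear hormone receptor pseudogenes, *nhr-240*, *nhr-266* and *nhr-151* were called up and 0 were down by DESeq2, all at low counts. None of the 6 was down at an unadjusted p below 0.05 or by edgeR, which called 1 up against 2-fold. Of coding nuclear hormone receptor genes 8.87% were up and 8.06% down. *nhr-151* had 0, 1 and 0 counts in wild-type and could be tested only through its mutant counts, and with total-count scaling neither *nhr-151* nor *nhr-266* was called. *nhr-240* had 27, 25 and 35 counts in *lotr-1(sam117)*, against 5, 7 and 6 in wild-type. DESeq2 called 0 of 6 tested C-type lectin pseudogenes and 0 of 1 tested major sperm protein pseudogene, with 0 at an unadjusted p below 0.05, and edgeR against 2-fold also called 0. Of tested coding genes, 8.20% of C-type lectins were up and 1.64% down, and 0 of 19 major sperm protein genes were called. With so few pseudogenes these zeros say little about either class.

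Several pseudogenes share a class name with a coding gene. The examples here were chosen after their values were seen, and other such classes are not given, so they do not describe such classes in general. *cars-2* was at 0.74 and not called, whereas *cars-1*, the cysteinyl-tRNA synthetase gene, had 1592, 1787 and 1628 counts in *lotr-1(sam117)*, against 221, 266 and 251 in wild-type, which is 3.53 ± 0.08 (SE) on the log2 scale, with a DESeq2 adjusted p of 5.19e-224. *asna-2* had 111, 131 and 124 counts in *lotr-1(sam117)*, against 1483, 1590 and 1723 in wild-type, a log2 fold change of -2.94, and *asna-1*, which encodes a membrane-protein targeting ATPase, was at -0.50 and not called. *duo-2* was called up (2.02), with *duo-1* at 0.16 and *duo-3* at -0.48, not called. *wee-1.2*, of a class of cell cycle kinases, was called down (-2.05), and *wee-1.3* was at 0.18 and not called. The difference within each pair was not tested.

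Named relatives of small RNA factors, and of the separate Pumilio RNA-binding class, were also among the pseudogenes. *wago-2*, of the Argonaute class that binds 22G-RNAs, had 623, 772 and 671 counts in *lotr-1(sam117)*, against 2145, 2462 and 2637 in wild-type. Its libraries did not overlap, but its log2 fold change of -1.04, computed after division by size factors, did not pass the test against 2-fold. With total-count scaling it was at -1.83 and was called down. *prg-2*, the relative of the Piwi gene *prg-1*, was at 0.16 and *prg-1* at 0.27, neither called. *puf-4*, of the Pumilio RNA-binding class, had 3718, 4056 and 3643 counts in *lotr-1(sam117)*, against 1059, 1110 and 1264 in wild-type, a log2 fold change of 2.50 (DESeq2 adjusted p = 8.39e-193), while *puf-10*, another pseudogene of that class, was at 0.63 and not called.

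Finally, neighbours were compared. The nearest tested protein-coding gene was called up for 20 of the 100 pseudogenes called up (20.0%), for 1 of the 52 called down (1.92%) and for 51 of the 559 not called (9.12%). It was called down for 7 of those called up (7%), 11 of those called down (21.2%) and 32 of those not called (5.72%). No test was made of these differences. Examples are *ZK1236.8* beside *pqn-96* (2.19), *C25D7.2* beside *sdc-3* (2.25), a dosage compensation gene, and *Y73F8A.37* beside *Y73F8A.32* (3.27). An opposite case was *W04B5.2*, called down at -1.17, whose neighbour *W04B5.3* was at 7.21. When each called pseudogene was paired with the next called one, 22 pairs lay within 20 kb. Of these, 19 had the same direction and 3 the opposite one. Pseudogenes that were not called lie between some of them, and pairs within a run share members. No such count for coding genes or all loci is set beside this one, and 65.8% of pseudogene calls were up, so it is a description only. An exon of another gene on the same strand overlapped 7 of the called pseudogenes, and reads there cannot be told apart.

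Runs of neighbours were seen on chromosome V and are given as chosen after their values were seen. In a 6.694 kb stretch the 3 pseudogenes *C25D7.12*, *C25D7.14* and *C25D7.2* were all called up, and *C25D7.12* had 153, 153 and 141 counts in *lotr-1(sam117)*, against 3, 2 and 6 in wild-type. The coding gene between them, *melo-3*, had too few counts to test. In a 21.362 kb stretch, *Y102A5C.35*, *Y102A5C.5*, *Y102A5C.6*, *fbxa-110* and *Y102A5C.11* were called down. *Y102A5C.6* had 2, 0 and 0 counts in *lotr-1(sam117)*, against 128, 148 and 149 in wild-type, at least 27.7-fold lower. The coding gene *Y102A5C.36* among them had 0, 2 and 1 counts in *lotr-1(sam117)*, against 596, 608 and 681 in wild-type, at least 123-fold lower. Other pseudogenes of that stretch were not called, with log2 fold changes of 1.05 at *clec-237*, 0.86 at *Y102A5C.43*, 0.50 at *Y102A5C.37*, 0.03 at *fbxa-205* and -0.04 at *fbxa-204*. The change was therefore not shared by the whole stretch.

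**Figure D5:**
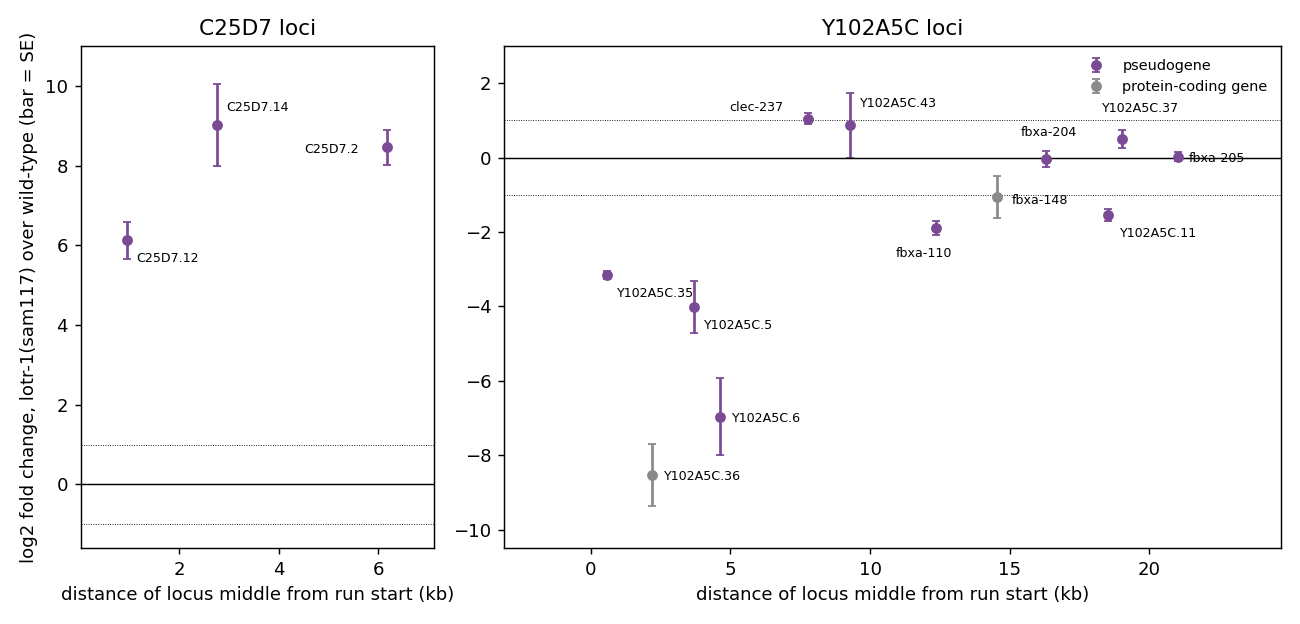
Log2 fold change of *lotr-1(sam117)* over wild-type, with standard errors, for tested loci of the C25D7 run (left) and the Y102A5C run (right), against distance from the start of the run in kilobases, with pseudogenes and protein-coding genes in different colours and dotted lines at 1 and -1. All 3 tested C25D7 loci lie above 6, whereas the Y102A5C run holds loci near 0 beside loci below -3.

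The pseudogenes *AC8.7* and *AC8.12* on the left arm of chromosome X have equal exon lengths of 744 bases. *AC8.7* had 3165, 3392 and 3078 counts in *lotr-1(sam117)*, against 1814, 1898 and 2323 in wild-type. *AC8.12* had 3107, 3485 and 3053 counts in *lotr-1(sam117)*, against 1780, 1937 and 2169 in wild-type. Both were called up (1.45 and 1.48), and their counts were near-equal in each library. With total-count scaling they were at 0.66 and 0.69, and neither was called. Reads with several equally good positions were placed at 1 of them at random, so counts at near-identical pseudogenes are uncertain and such loci are not independent of each other. Sequences were not analysed here, and the share of unique sites in each pseudogene was not tested.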

How the data were processed

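Small RNAs of 3 *lotr-1(sam117)* and 3 wild-type libraries were grouped by their GEO labels. The deposited values are counts of 22G-RNA reads at each locus, which the authors had not normalized. According to the study's methods and processing notes, reads were trimmed with cutadapt 2.4 and aligned to WBcel235/ce11 with Bowtie 1.2.2, allowing 1 mismatch and 1 random position for reads with several best positions. Reads of 22 bases starting with G and antisense to exons (Ensembl release 96) or transposons were counted with featureCounts 1.6.2. Strand was used, so genes that overlap in place on opposite strands do not share reads. Reads with several best positions may still be divided at random between near-identical copies, whichever strand each copy is on. Collapsing of PCR duplicates is not stated, so floors cover counting error only.

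Biotypes, coordinates and exon lengths came from Ensembl release 115 on the same assembly, in which 171 listed identifiers were not found. Symbols came from Ensembl, or from RefSeq (WBcel235) by sequence name where Ensembl gave none. All 2103 pseudogenes had a RefSeq entry of the same sequence name at the same place, and RefSeq classed 1893 of them as pseudogenes too. Serpin genes (*srp*) were kept out of the chemoreceptor class.

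All 22336 loci were fitted together in DESeq2 1.42.0 (R 4.3.3) with median-of-ratios size factors. A Wald test against 2-fold was used, and a locus was called when its p, adjusted by Benjamini-Hochberg over all tested loci, was below 0.1. Unshrunken fold changes have *lotr-1(sam117)* on top. Bounds use 3 counts per library as the floor. Shares are given as values without a test, and an exact permutation test of 3 against 3 libraries cannot go below p = 0.1. On simulated counts for 22336 loci with 200 changed 8-fold, 180 were recovered with 0 false calls. The other loci were simulated without any change but tested against 2-fold, and rises and falls were equal in number. The simulation therefore measures neither false calls near 2-fold nor the effect of scaling. Alternatives were total-count scaling, TMM factors, edgeR 4.0.16, other filters and thresholds, a replicate block, leaving out each library, overlap, RefSeq class and count groups. Chi-square per degree of freedom between replicates was 1.40 to 1.87, so no library was a copy of another. Named pseudogenes were the 10 largest rises and 10 largest falls among called pseudogenes averaging 100 normalized counts or more without overlap between genotypes, and the 6 highest in wild-type. Members, lists and rules were chosen with earlier results of these data known.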

Additional observations from a re-analysis of the deposited data

How the results depend on the processing

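The direction of the balance between calls depended on scaling. Total-count scaling gave 51 pseudogenes called up and 107 called down and a median log2 fold change of -0.47, against 100, 52 and 0.40 with size factors. At the named loci it left 23 of 27 as they were, took *F37H8.2* below the threshold (0.35) and changed the sign of *Y39E4B.14* (-0.67), *cars-2* (-0.049) and *K08B4.5* (-0.12), none of which was called. Every other alternative fitted for single loci left the direction and call of all 27 named loci as they were. The 10 rises and 10 falls among them were chosen as the largest in these data, so their stability was close to fixed by that rule. The restrictions by overlap and by RefSeq class were counted only over all pseudogenes, and the first would leave out *fbxa-168* and *F52G3.3*. The excess of calls up over coding genes at like counts was 2.53 percentage points with total-count scaling, 9.17 with at least 10 counts in 3 libraries, 9.10 with DESeq2 against no change, 10.2 with edgeR against 2-fold and 11.9 with edgeR against no change, and the difference in calls down was -2.10 with total-count scaling. The edgeR test against 2-fold gave 131 up and 78 down. Testing against no change and keeping estimates above 2-fold gave 204 up and 102 down with DESeq2 and 158 up and 98 down with edgeR, a less strict test by construction. The median log2 fold change was 0.26 with both edgeR tests, 0.34 with TMM factors, 0.35 with at least 10 counts in 3 libraries and 0.49 without a low-count filter, and the cause was not tested. Leaving out each library in turn gave 86 to 92 up, 46 to 49 down, a median of 0.32 to 0.41 and a difference in share of -1.40 to -1.26 percentage points. With counts at genes only that difference was -0.77. Replicate numbers were shared between genotypes, but same-numbered libraries did not deviate together (correlations 0.00774, 0.00885 and 0.00842), so the numbers do not pair them. With the replicate block there were 90 up, 48 down and a median of 0.35, and the block changed no call among the 27 named loci. The planned restriction to pseudogenes with unique 22G-RNA sites was not run. The restriction to loci that RefSeq also classes as pseudogenes was chosen after seeing the data and gave 99 up and 52 down. Low counts left 799 pseudogenes with no count and 593 with too few for an adjusted p.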
